A study of Homo sapiens with 12 samples.

Results

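The response to CHD4 shRNA shared by 2 human acute myeloid leukaemia cell lines was measured as the average of the CHD4 shRNA minus scrambled shRNA change in U937 and MV4-11, over all 12 arrays of the series. U937 cells are of monocytic type, and MV4-11 cells carry an MLL rearrangement and an activated FLT3 receptor. Each line carried a lentiviral vector with green fluorescent protein and an H1-promoter hairpin, either scrambled or against CHD4, and was hybridised in 3 arrays per hairpin, which gave 4 groups of 3 and 6 arrays on each side of the average. The series description calls the triplicates biological. The target is written CDH4 in the sample labels and CHD4 in the series description, and the CHD4 signal given below fell in the arrays labelled with the targeting hairpin. The labels do not say how many hairpin sequences were used or whether transduced cells were sorted.

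CHD4 is an ATP-dependent nucleosome remodeler and the motor subunit of the NuRD complex, which also holds histone deacetylases, methyl-CpG-binding MBD proteins, histone-binding RBBP proteins, MTA scaffold proteins and GATAD2 linkers. NuRD is recruited to promoters and enhancers, where it shifts nucleosomes and removes acetyl groups from histones. It is known both for keeping genes of other lineages silent and for tuning the level of active genes, and in blood cells it works with lineage transcription factors.

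Values are log2 RMA values, so a difference of 1 is 2-fold. A gene was taken as changed where the average change had a limma adjusted p under 0.05 over the 11963 genes tested, each represented by 1 probe set. Array medians ran from 6.97 to 7.02. Of 11 myeloid marker genes 9 were measured, and ranked by their level among all genes LYZ, CEBPA and PTPRC lay at percentiles 99, 94 and 91. CD14, MPO, SPI1, CSF1R, ITGAM and FCGR1A lay at percentiles 6 to 48, below the median gene. Of 19 measured markers of other cell types, 17 lay below the middle level, and the exceptions were TPSAB1, at between 9.18 and 10.1, and COL1A1. In a principal component plot of all genes, U937 CHD4 shRNA replicate 3 lay at one end of the second component (-27.66) and MV4-11 CHD4 shRNA replicate 2 at one end of the first. They are called the arrays that stand apart below, a label for this plot alone. MV4-11 scrambled replicate 3 lay at the opposite end of the second component (29.2). With 1 array left out, the count of changed genes was lowest without MV4-11 CHD4 shRNA replicate 1 (1774) and highest without MV4-11 CHD4 shRNA replicate 3 (2348).

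CHD4 itself fell in every targeted array. Its level was 10.31, 10.38 and 10.71 in the U937 scrambled arrays and 8.23, 8.13 and 8.45 in the U937 CHD4 shRNA arrays. In MV4-11 it was 10.65, 10.69 and 10.68 against 8.79, 8.85 and 8.39. The groups were far apart in both lines, with no overlap. The average change was -2.10 (SE 0.10, limma adjusted p = 1.12e-07), a 4.28-fold fall, and the other CHD4 probe sets changed by -1.84 and -1.76. The change was -2.20 in U937 and -2.00 in MV4-11. In these bulk samples, fewer cells with a transcript and less of it per cell cannot be told apart, here and in every result that follows.

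Across the genome the shared response was broad and mostly small. Of the 11963 genes 2264 changed (18.9%), 1055 of them higher (8.82%) and 1209 lower (10.1%). At least 2-fold changes numbered 84 rises and 44 falls, whereas 1722 of the changed genes (76.1%) moved by less than 1.5-fold and 684 by less than 1.25-fold. The median size of a called change was 0.40 on the log2 scale, or 1.32-fold, and the smallest was 0.17. Averaging over both lines brought the median standard error of a gene's change to 0.09, from 0.12 in a single line. The genes nearest the threshold were KDM4C (-0.23) and COX11 (-0.35) inside it and ACAT2 (-0.38) and HMGN4 (-0.23) outside it.

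Both lines moved in the same direction at all 2264 changed genes, against 66.3% of all genes tested, but a gene is called on the average most easily when its lines agree. Across the 11963 genes, which are not independent replicates, the U937 change and the MV4-11 change had a Pearson r of 0.71 and a Spearman rho of 0.57. Single-line tests found 761 genes in U937 (6.36%) and 1127 in MV4-11 (9.42%). Of the genes changed in the average, 477 were past the threshold in both lines, 256 in U937 but not MV4-11, 558 in MV4-11 but not U937 and 973 in neither. Another 120 genes past the threshold in a line, 28 in U937 and 92 in MV4-11, did not pass in the average. These splits do not show that a gene differed between the lines. The test of that difference called 0 genes in limma, with a lowest adjusted p of 0.539, and 546 genes (4.56%) had an unadjusted p under 0.05. Without MV4-11 CHD4 shRNA replicate 2 it called 4 genes and without MV4-11 CHD4 shRNA replicate 3 it called 1.

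**Figure D1:**
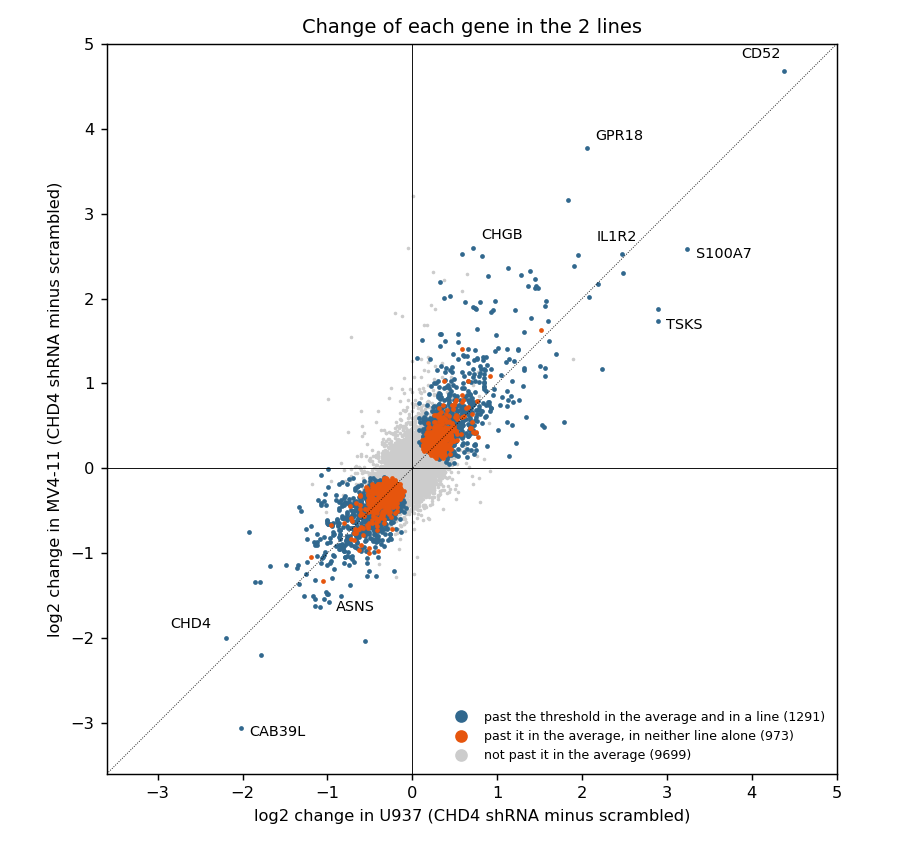
Log2 change (CHD4 shRNA minus scrambled) of each of 11963 genes in U937 (horizontal) and MV4-11 (vertical), with the dotted line marking equal change. Blue genes changed in the average and in at least 1 line, orange genes (973) changed in the average and in neither line alone, and both colours lie in the quadrants of equal sign.

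Among changed genes with an average size of 0.25 to 0.5 the median ratio of the MV4-11 to the U937 change was 1.08. Among the 128 changed genes of 1 or more it was 1.25, and whether the ratio differed with size was not tested. Of 9236 genes with an average size under 0.25, 230 (2.49%) were called, compared with 1274 of 1901 (67%) between 0.25 and 0.5 and 632 of 689 (91.7%) between 0.5 and 1. No array carried the response alone. The median shift of the 1055 risen genes from the scrambled mean was 0.29, 0.34 and 0.49 in the U937 CHD4 shRNA arrays and 0.49, 0.49 and 0.36 in the MV4-11 ones. For the 1209 fallen genes it was -0.28, -0.42 and -0.48 in U937 and -0.44, -0.46 and -0.33 in MV4-11. U937 CHD4 shRNA replicate 1 and MV4-11 CHD4 shRNA replicate 3 were thus the mildest of their groups in the fallen genes, and replicate 1 was mildest in U937 and replicate 3 in MV4-11 for the risen genes too. These arrays were themselves part of the fit that chose the genes.

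The largest rise was that of CD52, a small GPI-anchored glycoprotein of lymphocytes and monocytes. Its level was 5.80, 5.89 and 5.11 in U937 scrambled arrays and 9.38, 9.79 and 10.78 with CHD4 shRNA. In MV4-11 it was 6.27, 6.99 and 6.78 against 11.69, 11.38 and 11.02. The lowest CHD4 shRNA array of either line lay above the highest scrambled array of both. The average change was 4.53 (SE 0.23, limma adjusted p = 1.17e-07), a 23.2-fold rise, and a second CD52 probe set gave 3.15.

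Other large rises included antimicrobial, decoy-receptor and adhesion genes. S100A7, a calcium-binding antimicrobial protein of skin, stood at 5.20, 5.10 and 4.69 in U937 controls and at 8.19, 8.49 and 8.03 with CHD4 shRNA, and at 5.04, 5.43 and 5.02 against 8.30, 7.35 and 7.59 in MV4-11. It rose by 2.91 (SE 0.18), or 7.52-fold, with no overlap in either line. IL1R2, the decoy receptor for interleukin-1, stood at 4.90, 4.66 and 4.14 against 6.80, 6.88 and 7.44 in U937 and at 4.86, 4.96 and 4.86 against 7.95, 7.35 and 6.97 in MV4-11. It rose by 2.50 (SE 0.17), nearly equally in both lines (2.47 and 2.53). CEACAM6, a granulocyte adhesion molecule, rose by 2.49 (SE 0.26), from between 5.13 and 5.98 in all 6 scrambled arrays to between 7.07 and 9.17. The scavenger and fatty acid receptor CD36 rose by 2.39 (SE 0.35), with its highest value, 11.14, in U937 CHD4 shRNA replicate 3 and its lowest CHD4 shRNA value, 7.05, in MV4-11 replicate 3. A second CD36 probe set gave 2.14 and the remaining one, at 0.25, did not pass.

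The other 3 of the 8 largest rises were GPR18, CSRP3 and TSKS. The G protein-coupled receptor GPR18 stood at 6.22, 6.58 and 6.40 against 7.39, 7.84 and 10.15 in U937, and at 5.42, 4.90 and 5.03 against 9.20, 10.25 and 7.22 in MV4-11. All 6 CHD4 shRNA arrays were above all scrambled arrays, but U937 replicate 3 stood well above replicates 1 and 2, and the average change of 2.92 had the widest error of this group (SE 0.54, limma adjusted p = 0.00204). In U937 alone GPR18 did not pass (2.06, adjusted p = 0.115). CSRP3, a muscle LIM protein, rose by 2.38 (SE 0.25), and TSKS, a testis kinase substrate, by 2.31 (SE 0.20), while a second TSKS probe set rose by 0.44.

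The largest fall was that of CAB39L, a scaffold protein of the LKB1 kinase complex. It stood at 9.29, 9.47 and 9.15 in U937 controls against 7.90, 7.23 and 6.73 with CHD4 shRNA, and at 9.91, 9.61 and 10.66 against 6.69, 6.21 and 8.09 in MV4-11. The groups did not overlap, and MV4-11 CHD4 shRNA replicate 3 was the highest of the targeted arrays. The average change was -2.54 (SE 0.32, limma adjusted p = 0.00017), a 5.82-fold fall. BLNK, an adaptor of B-cell receptor signalling, stood at 9.23, 9.09 and 8.77 against 8.08, 7.60 and 6.06 in U937 and at 8.55, 8.09 and 8.50 against 6.18, 5.46 and 6.89 in MV4-11, and fell by 1.99 (SE 0.30) on the log2 scale.

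The remaining large falls were GNPDA1 (-1.60, SE 0.19), which converts glucosamine phosphate into a glycolytic sugar, the cilium and sperm-flagellum gene MNS1 (-1.57, SE 0.15), the zinc finger gene ZFP69B (-1.42, SE 0.12), the Rac activator TIAM1 (-1.39, SE 0.17) and GALNT3 (-1.39, SE 0.21), which starts O-linked glycosylation. ZFP69B had the smallest error of these, with scrambled arrays between 5.96 and 6.66 and CHD4 shRNA arrays between 4.65 and 5.19 in both lines together. A second GALNT3 probe set, at -0.04, did not pass. These 16 genes were chosen for groups that do not overlap in either line, so a permutation test within lines would repeat that choice and is not given.

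**Figure D2:**
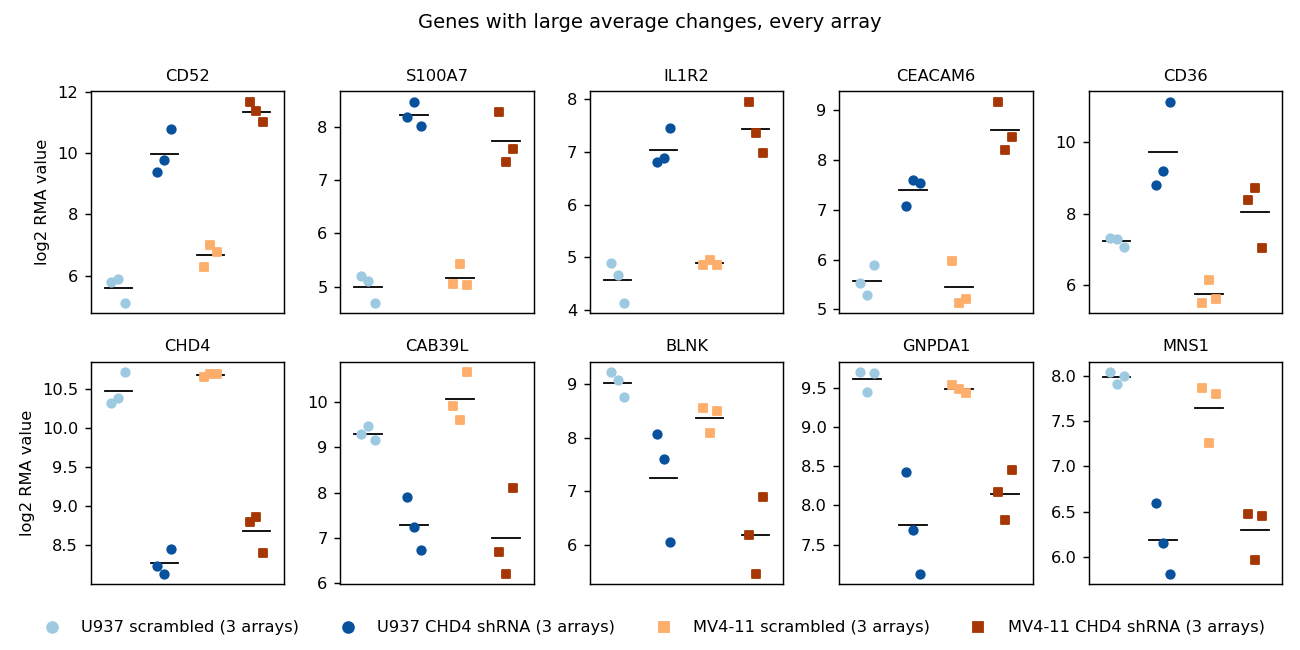
Log2 RMA value of 10 genes with large average changes in each of the 12 arrays, with a bar at each group's mean and a separate vertical scale for each gene, not starting at 0. In both lines the CHD4 shRNA arrays of CD52, S100A7, IL1R2, CEACAM6 and CD36 lie above, and those of CHD4, CAB39L, BLNK, GNPDA1 and MNS1 below, the scrambled arrays of the same line.

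Small changes that neither line passed alone made up 973 genes (8.13% of those tested), 445 higher (3.72%) and 528 lower (4.41%). Their median size was 0.31, or 1.24-fold, and 46 were over 1.5-fold. Of the 973 genes 455 had an unadjusted p under 0.05 in both lines and 9 had one of 0.05 or more in both. The count fell to 598 without MV4-11 CHD4 shRNA replicate 3, where the count of all changed genes was 2348. Of the 973 genes 486 were among these 598 (49.9%), and 480 stayed in the class without U937 CHD4 shRNA replicate 3 (49.3%). Membership of the class was thus less stable than its size. In 403 of the 973 genes, 180 higher and 223 lower, every CHD4 shRNA array lay on the same side of every scrambled array in both lines. Over all genes tested 1495 had such separation (12.5%), 688 upward (5.75%) and 807 downward (6.75%), and 1413 of these were among the changed genes.

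The 6 separated rises with the lowest p among these 973 genes included cytoskeletal regulators. WAS, which activates actin branching in blood cells, stood at 10.86, 10.90 and 10.75 against 11.04, 11.20 and 11.24 in U937, and at 10.72, 10.79 and 10.59 against 10.99, 11.04 and 10.94 in MV4-11. The steps were small and without overlap, and gave an average change of 0.31 (limma adjusted p = 0.0036; 0.0558 in U937 and 0.0651 in MV4-11). A second WAS probe set, at 0.14, did not pass. RAC2, the Rac GTPase of blood cells, stood at 11.98, 12.05 and 11.75 against 12.20, 12.35 and 12.38 in U937 and at 11.95, 12.20 and 12.09 against 12.47, 12.59 and 12.30 in MV4-11, a rise of 0.38. CNN2, an actin-binding calponin, rose by 0.30, the cargo-docking membrane protein CLSTN1 by 0.45, the nuclear receptor coactivator NCOA1 by 0.31 and PRKAA1, a catalytic subunit of AMP-activated kinase, by 0.40. Of 3 further NCOA1 probe sets, those at 0.55 and 0.34 passed and that at 0.12 did not.

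The 6 corresponding falls covered DNA maintenance, metabolism and signalling. POLD2, a subunit of DNA polymerase delta, stood at 9.98, 9.75 and 10.02 against 9.54, 9.44 and 9.38 in U937 and at 9.94, 9.71 and 9.41 against 9.36, 9.27 and 9.07 in MV4-11, where the gap between the nearest arrays of the groups was 9.41 against 9.36. It fell by 0.46 on the log2 scale. ASCC3, a helicase that helps repair alkylated DNA, stood at 8.64, 8.73 and 8.67 against 8.44, 8.29 and 8.14 in U937 and at 9.15, 9.08 and 9.44 against 8.81, 8.86 and 8.91 in MV4-11, a change of -0.38. ME2, the mitochondrial malic enzyme, changed by -0.39, with 2 further probe sets at -0.42 and -0.41. The calcium-dependent phospholipid-binding protein CPNE3 changed by -0.40, the Hippo pathway scaffold SAV1 by -0.44 and ECSIT, which assists assembly of respiratory complex I, by -0.30. The limma adjusted p of these 12 genes, which were chosen by p, lay between 0.00301 and 0.00389.

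**Figure D3:**
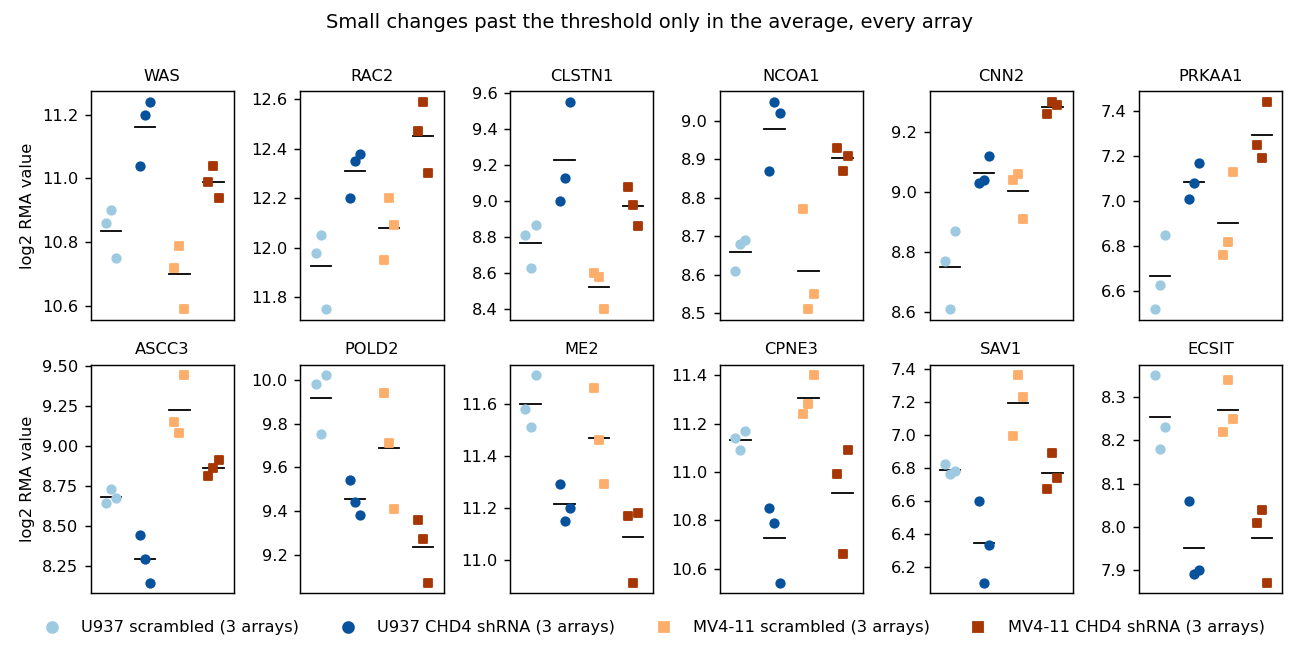
Log2 RMA value of 12 genes that changed in the average and in neither line alone, in each of the 12 arrays, with a bar at each group's mean and a separate vertical scale for each gene, not starting at 0. The upper row shows rises of 0.30 to 0.45 and the lower row falls of 0.30 to 0.46, and in each line the CHD4 shRNA arrays lie wholly on one side of the scrambled arrays.

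Gene groups were described with 37 textbook lists, of which 1019 of 1152 members were measured and 248 changed. The backgrounds for each list are the 8.82% of all genes that rose and the 10.1% that fell, with a median change of -0.02. No set test was run. A gene changed in the average need not separate in both lines. The groups of CCNE2, DNMT3B, NDUFS4, GATAD2A and BAG3 overlapped in U937, and those of CCND2, IDI1 and DHCR7 in MV4-11. List counts of 0 to 2 rest on single genes and lay between 0 and 4 when any 1 array was left out, or both arrays that stand apart. The arrays are named below for larger counts that moved by over 1.5 times and for small counts set against a larger one.

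Genes of the amino acid stress response fell together. ATF4 is a transcription factor made when amino acids run short or the endoplasmic reticulum is stressed, and it drives amino acid synthesis and import and the tRNA synthetases that load amino acids onto tRNA. Of 38 measured members of the list 23 fell and 1 rose, with a median change of -0.34. The list's median shift from the scrambled mean was -0.14, -0.33 and -0.40 in the U937 CHD4 shRNA arrays and -0.39, -0.47 and -0.27 in the MV4-11 ones, against -0.04 to 0.03 in the 6 scrambled arrays. Every targeted array was below every control by this median. In 17 members all targeted arrays lay below all controls of their line, and 7 of the falls passed in neither line alone. Leaving out any 1 array left between 20 and 23 falls, and 18 remained past the threshold without both arrays that stand apart.

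ASNS, which makes asparagine, moved most in this list. It stood at 9.56, 9.41 and 9.43 against 8.97, 8.61 and 7.81 in U937 and at 9.76, 9.86 and 9.75 against 8.30, 8.05 and 8.58 in MV4-11. The controls were tight and the targeted arrays spread below them, with the lowest value in U937 CHD4 shRNA replicate 3. The average change was -1.24 (SE 0.17, limma adjusted p = 0.000254), a 2.36-fold fall. PSAT1, an enzyme of serine synthesis, stood at 9.74, 9.69 and 9.83 against 9.39, 9.05 and 8.87 in U937 and at 9.76, 9.65 and 9.54 against 8.78, 8.55 and 9.02 in MV4-11, and changed by -0.76. IARS1, the isoleucine tRNA synthetase, had the lowest p of the list, with a change of -0.57 (SE 0.07, adjusted p = 0.000149), the same in U937 (-0.57) and MV4-11 (-0.56).

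Other members are named here after their values were seen, to show the reach of the list. ATF4 itself fell by 0.46 on the log2 scale, the cystine transporter SLC7A11 by 1.08, the arginine transporter SLC7A1 by 0.54 (with 2 of its 4 other probe sets, at -0.15 and -0.08, not passing), the glutamine transporter SLC38A2 by 0.46 and the stress pseudokinase TRIB3 by 0.61. Of 12 cytosolic tRNA synthetases 8 fell and 0 rose, 11 were below 0 and the median change was -0.32, with EPRS1 at -0.71, SARS1 at -0.52 and WARS1 at 0.03. The serine and folate enzymes PHGDH, SHMT2 and MTHFD2 fell by 0.42, 0.28 and 0.32. The exception among the changed members was CEBPB, a C/EBP transcription factor of myeloid cells, which rose by 0.28 and lost its call without U937 scrambled replicate 1 or 2, U937 CHD4 shRNA replicate 3, MV4-11 scrambled replicate 1 or 2, or MV4-11 CHD4 shRNA replicate 2 or 3. ATF3, PPP1R15A, NUPR1 and CHAC1, which are also stress-induced, did not pass (0.18, 0.11, 0.12 and 0.00).

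**Figure D4:**
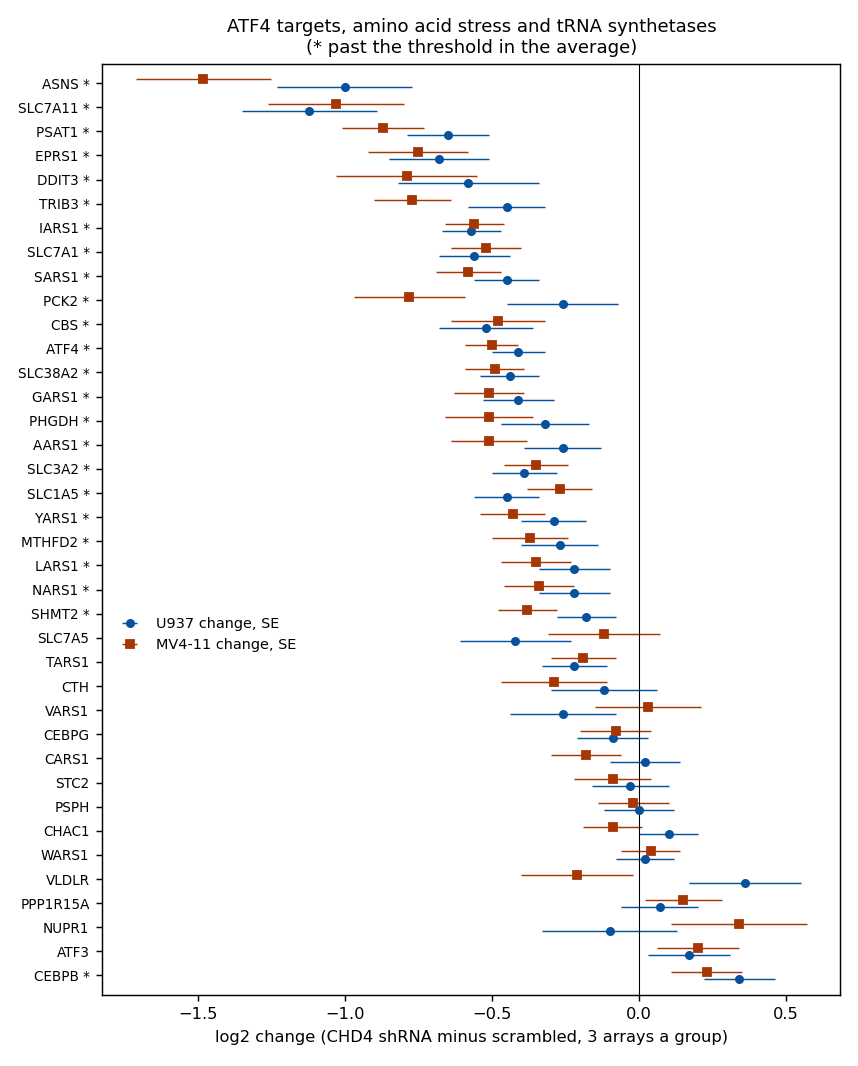
Log2 change (CHD4 shRNA minus scrambled, horizontal, bars 1 SE) of the 38 measured members of the ATF4 and tRNA synthetase list in U937 (circles) and MV4-11 (squares), ordered by the average change. The 24 members marked * changed in the average, 23 of them to the left of 0 in both lines, and CEBPB to the right.

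The promoters of 3 fallen list members are shown for the C/EBP-ATF response element, the composite site that ATF4 binds with a C/EBP partner, searched as TGATGNAA on both strands after the values had been seen. Each sequence is the 250 bases before the RefSeq start on GRCh38.p14, written 5′ to 3′ on the gene's strand, with the match in capitals (TTGCATCA is a match on the opposite strand). ASNS is at chr7:97872409-97872658, minus strand, with its match from -68 to -61, AARS1 at chr16:70289507-70289756, minus strand, from -187 to -180, and IARS1 at chr9:92293698-92293947, minus strand, from -13 to -6.
ASNS: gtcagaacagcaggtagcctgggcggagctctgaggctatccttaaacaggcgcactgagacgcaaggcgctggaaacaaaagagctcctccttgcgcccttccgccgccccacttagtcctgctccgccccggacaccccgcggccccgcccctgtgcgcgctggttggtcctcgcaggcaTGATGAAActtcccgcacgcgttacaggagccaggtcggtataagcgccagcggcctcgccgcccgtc
AARS1: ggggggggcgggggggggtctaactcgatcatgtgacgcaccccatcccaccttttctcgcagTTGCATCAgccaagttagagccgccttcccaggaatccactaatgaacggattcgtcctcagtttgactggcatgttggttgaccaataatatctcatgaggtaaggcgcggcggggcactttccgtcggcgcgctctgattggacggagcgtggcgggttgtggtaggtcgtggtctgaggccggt
IARS1: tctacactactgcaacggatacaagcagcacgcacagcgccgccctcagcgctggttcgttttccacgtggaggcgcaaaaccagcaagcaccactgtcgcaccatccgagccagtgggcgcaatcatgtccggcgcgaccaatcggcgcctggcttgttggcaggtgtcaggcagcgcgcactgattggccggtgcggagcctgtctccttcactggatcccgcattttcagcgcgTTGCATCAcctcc

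In the window from 250 bases before to 50 after the start, 10 of the 31 list members with a promoter in the RefSeq table held TGATGNAA (32.3%), and so did 6 of the 19 that fell (31.6%), compared with 3.67% of all 27305 promoters in the table. Among the 9563 tested genes with a promoter the share was 2.25%, among all genes that fell 2.17% and among those that rose 1.48%. The list was drawn up from known ATF4 targets, and its share describes the list, not its response.

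Genes of protein and RNA production in mitochondria and nucleoli also fell more often than they rose. Of 36 measured mitochondrial ribosomal proteins 11 fell and 1 rose, with a median of -0.14 (-0.25 in U937 and -0.08 in MV4-11), and 7 of the falls passed in neither line alone. The list's median shift was -0.21, -0.30 and -0.22 in the U937 CHD4 shRNA arrays against -0.03, -0.08 and 0.09 in their controls. In MV4-11 it was -0.07, 0.00 and -0.20 against 0.05, 0.06 and -0.09, which overlapped. MRPS30 stood at 10.60, 10.69 and 10.89 against 10.41, 10.18 and 10.24 in U937 and at 10.90, 10.95 and 11.19 against 10.36, 10.44 and 10.60 in MV4-11. Its groups did not overlap, and it changed by -0.50 (SE 0.08, limma adjusted p = 0.000731). MRPS27 changed by -0.38, while MRPL33 rose by 0.49.

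Of 26 measured MYC and ribosome biogenesis genes 7 fell and 0 rose, with a median of -0.15 (-0.27 in U937 and -0.03 in MV4-11). The list's median shift was -0.32, -0.41 and -0.11 in the U937 CHD4 shRNA arrays against -0.04, -0.10 and 0.13 in their controls. In MV4-11 it was 0.04, 0.11 and -0.43 against 0.13, 0.06 and -0.17, which overlapped. MYC, the growth transcription factor, stood at 12.29, 12.22 and 12.55 against 11.85, 11.38 and 11.35 in U937 and at 11.75, 12.06 and 11.97 against 11.12, 11.45 and 10.55 in MV4-11. It was lower in every targeted array of its line and changed by -0.86 (SE 0.14), or 1.81-fold. CAD, which starts pyrimidine synthesis, changed by -0.54 (SE 0.07) and the RNA polymerase I subunit POLR1E by -0.59 (SE 0.08). Of 28 cytosolic ribosomal proteins 2 fell and 0 rose, RPL12 (-0.21) and RPL3 (-0.20), and 27 were below 0 (22 after quantile normalization of the deposited values). RPL3 lost its call without U937 scrambled replicate 1, U937 CHD4 shRNA replicate 3, MV4-11 scrambled replicate 2, or MV4-11 CHD4 shRNA replicate 1 or 2, and the count of 2 became 1 without each of these and 0 without both arrays that stand apart.

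Metabolic lists held more falls than rises past the threshold, but not all their medians were lower. In cholesterol and fatty acid synthesis 4 of 23 measured members fell and 0 rose, 22 were below 0 and the median was -0.18. In U937 alone 4 members fell and in MV4-11 alone 1. By the list's median shift the highest MV4-11 CHD4 shRNA array and the lowest MV4-11 control both stood at -0.06. The mevalonate pathway enzymes PMVK and IDI1 changed by -0.57 and -0.70 and the last-step reductase DHCR7 by -0.64, and the count was 8 without MV4-11 CHD4 shRNA replicate 3. Among 32 glycolysis and hypoxia genes 6 fell and 3 rose, with a median of 0.03 and 17 members above 0. The hexokinase HK2 changed by -0.72 (SE 0.10), with a second probe set at -0.22 that did not pass, and PDK1, which holds back pyruvate oxidation, by -0.79. The muscle-type phosphofructokinase PFKM rose by 0.66 (SE 0.08). In the respiratory chain 7 of 40 members fell and 3 rose, with a median of -0.04. The complex I subunits NDUFA9 (-0.39), NDUFV1 (-0.47) and NDUFS4 (-0.37) were among the falls. The falls numbered 4 without U937 scrambled replicate 2, MV4-11 scrambled replicate 2 or MV4-11 CHD4 shRNA replicate 1, and the rises 0 without both arrays that stand apart. Of 23 endoplasmic reticulum chaperone and unfolded protein response genes 6 fell and 1 rose, with HERPUD1, a degradation factor induced by that stress, at -0.80 (SE 0.14) and the mannosidase-like EDEM1 at 0.66 (SE 0.10). DERL1 changed by -0.37, but a second probe set stood at 0.01 and the mean of its probe sets did not pass.

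Some mitotic genes rose by small amounts. Of 36 measured G2/M and mitosis genes 9 rose and 0 fell, 32 were above 0 and the median was 0.16. In U937 alone 2 members rose and in MV4-11 alone 0, and 8 of the 9 passed in neither line alone. By array the list's median shift overlapped in both lines. It was 0.08, 0.16 and 0.40 in the U937 CHD4 shRNA arrays against -0.11, -0.14 and 0.25 in their controls. In MV4-11 it was 0.18, 0.02 and 0.27 against -0.07, -0.02 and 0.09. PRC1, which bundles microtubules of the central spindle, stood at 11.44, 11.29 and 11.55 against 11.69, 11.77 and 11.96 in U937 and at 11.06, 11.15 and 11.16 against 11.44, 11.35 and 11.47 in MV4-11. The groups did not overlap, and the rise was 0.34 (SE 0.07, limma adjusted p = 0.00345). The mitotic kinesin KIF20A rose by 0.40 and the spindle protein NUSAP1 by 0.37. The count lay between 6 and 12 when 1 array was left out. Of 44 DNA replication and G1/S genes 3 rose and 3 fell. The median of the replication list was 0.07 (-0.08 in U937 and 0.17 in MV4-11), and 28 of its members were above 0. In U937 alone 0 of its members rose and 2 fell, and in MV4-11 alone 2 rose and 0 fell. The difference between the G2/M and replication lists was not tested. Cyclin E2, CCNE2, rose by 1.09 (SE 0.23), whereas cyclin D2, CCND2, changed by -0.94 (SE 0.21), with 1 of its other probe sets, at -0.34, not passing, and the replication ligase LIG1 by -0.44.

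Replication-dependent histone genes rose in 5 of 25 cases and fell in 0, with a median of 0.31 (0.17 in U937 and 0.37 in MV4-11). In U937 alone 0 members rose, and in MV4-11 alone 7 rose. Their levels were uneven across arrays, since the list's median shift was 0.99 in MV4-11 CHD4 shRNA replicate 2 and between 0.08 and 0.26 in the other 5 targeted arrays. The 0.08 of MV4-11 CHD4 shRNA replicate 3 lay below the 0.16 of MV4-11 scrambled replicate 2, so the MV4-11 groups overlapped. H2BC5 stood at 7.30, 7.14 and 7.29 against 7.45, 7.66 and 8.23 in U937 and at 7.64, 8.30 and 7.60 against 9.40, 10.36 and 8.53 in MV4-11, a rise of 1.06, and another probe set, at 0.83, did not pass. The count was 3 without MV4-11 CHD4 shRNA replicate 1, 9 without MV4-11 CHD4 shRNA replicate 3 and 3 without both arrays that stand apart. Near-identical copies within histone clusters can share probes, so single members are uncertain.

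In DNA damage signalling 5 of 33 measured members of the double-strand break list fell and 3 rose. MDC1, the adaptor that gathers repair proteins at marked chromatin, stood at 9.69, 9.72 and 10.04 against 9.19, 8.93 and 9.16 in U937 and at 9.88, 10.09 and 10.10 against 9.05, 9.08 and 9.25 in MV4-11. The checkpoint kinase CHEK2 stood at 9.53, 9.52 and 9.71 against 9.02, 8.81 and 8.59 in U937 and at 9.66, 9.73 and 9.72 against 8.81, 8.42 and 9.20 in MV4-11. Neither gene's groups overlapped, and they changed by -0.81 (SE 0.08) and -0.84 (SE 0.11), while the helicase WRN changed by -0.65 (SE 0.11). The rises numbered 1 without any of U937 scrambled replicates 1 and 2, U937 CHD4 shRNA replicate 3, MV4-11 scrambled replicates 1 and 3 and MV4-11 CHD4 shRNA replicate 1, and 1 without both arrays that stand apart. Of 21 p53 targets 3 rose and 1 fell, each counted by 1 probe set. FAS was not called on the probe set that stood for it (-0.32), but other FAS probe sets passed at -0.46, -0.61 and -0.49. The p53 falls numbered 3 without MV4-11 scrambled replicate 1, 2 without MV4-11 scrambled replicate 2 or MV4-11 CHD4 shRNA replicate 2 or 3, 2 without both arrays that stand apart and 2 after median centring. RPS27L, a small ribosomal-like protein, rose by 0.55 (SE 0.06) and the stress protein SESN1 by 0.28 (SE 0.07). The growth-arrest gene GADD45A changed by -0.53 (SE 0.13), by -0.70 in U937 and by -0.35 in MV4-11. In MV4-11 GADD45A did not pass (limma adjusted p = 0.261) and its groups overlapped.

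Monocyte and macrophage genes rose more often than they fell. Of 37 measured monocyte and macrophage genes 12 rose and 1 fell, with a median of 0.20 (0.13 in U937 and 0.30 in MV4-11). The list's median shift was 0.09, 0.11 and 0.17 in the U937 CHD4 shRNA arrays against 0.11, 0.09 and -0.17 in their controls, which overlapped. In MV4-11 it was 0.24, 0.56 and 0.16 against 0.00, 0.05 and -0.02. FCER1G, the signalling chain of Fc receptors, stood at 10.26, 10.34 and 9.47 against 11.10, 11.22 and 11.51 in U937 and at 10.07, 10.01 and 10.10 against 11.60, 11.60 and 11.20 in MV4-11. Every targeted array lay above every control of either line, and the rise was 1.33 (SE 0.14, limma adjusted p = 4.01e-05). The exception was the lysosomal protease CTSD, at -0.67 (SE 0.08), while AIF1, an actin-bundling protein of macrophages, rose by 0.51, with a further probe set at 0.02 that did not pass. The count of rises was 7 without MV4-11 scrambled replicate 1 and 6 without both arrays that stand apart.

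Among 24 granulocyte granule proteins 6 rose and 2 fell, and the falls numbered 1 without U937 scrambled replicate 1 or 2, MV4-11 scrambled replicate 1 or 3, MV4-11 CHD4 shRNA replicate 1 or 2, or both arrays that stand apart. MMP9, a gelatinase that degrades matrix, stood at 7.05, 7.20 and 6.77 against 8.30, 8.57 and 9.23 in U937 and at 7.36, 7.13 and 7.38 against 8.77, 8.81 and 8.33 in MV4-11, a rise of 1.52 (SE 0.15) without overlap. The defensin DEFA4 rose by 1.23 (SE 0.15). Among 47 adhesion, migration and matrix genes 14 rose and 6 fell, with a median of 0.14. The chemokine receptor CXCR4, which holds blood cells in the marrow, stood at 12.70, 12.61 and 12.62 against 11.78, 11.52 and 11.81 in U937 and at 12.35, 12.47 and 12.64 against 11.30, 11.52 and 11.57 in MV4-11. The groups lay well apart in both lines, with a change of -0.98 (SE 0.08, limma adjusted p = 5.25e-06), and its other probe sets gave -0.99 and -0.98. The laminin receptor integrin ITGA6 changed by -0.86 (SE 0.09).

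Myeloid and haematopoietic transcription factors changed in 9 of 31 cases, 8 higher and 1 lower, and 6 of the rises passed in neither line alone. With same-numbered arrays of a line taken as pairs, 8 were higher and 6 lower. ID2, which blocks basic helix-loop-helix factors, rose by 0.58 (SE 0.08). The homeobox factor MEIS1 rose by 0.45 (SE 0.12), by 0.69 in U937 and by 0.22 in MV4-11. In MV4-11 MEIS1 did not pass (limma adjusted p = 0.378) and its groups overlapped. ERG, an ETS factor of stem cells, changed by -0.71 (SE 0.10) with a further probe set at -0.14 that did not pass. The rises numbered 4 without U937 scrambled replicate 2, U937 CHD4 shRNA replicate 3 or MV4-11 scrambled replicate 1, 5 without U937 scrambled replicate 1 or MV4-11 CHD4 shRNA replicate 1, and 2 without both arrays that stand apart. The falls numbered 3 without U937 CHD4 shRNA replicate 1 or MV4-11 CHD4 shRNA replicate 2 and after median centring, and 2 without MV4-11 scrambled replicate 3, MV4-11 CHD4 shRNA replicate 3 or both arrays that stand apart.

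Interferon-stimulated genes rose in 13 of 39 cases and fell in 2, with a median of 0.33 (0.14 in U937 and 0.45 in MV4-11). In U937 alone 4 members rose and 1 fell, and in MV4-11 alone 14 rose and 1 fell. IFITM1, a membrane protein that limits virus entry, stood at 9.08, 9.15 and 8.80 against 10.42, 10.71 and 10.40 in U937 and at 10.03, 10.90 and 10.42 against 11.30, 12.29 and 11.39 in MV4-11. The groups did not overlap, and it rose by 1.35 (SE 0.18). The DNA sensor IFI16 rose by 0.78 (SE 0.12), and the RNA sensor IFIH1 went the other way, at -0.91 (SE 0.14), with a second probe set at 0.04 that did not pass. The list's median shift was 0.04, 0.03 and 0.23 in the U937 CHD4 shRNA arrays against 0.02, 0.05 and -0.03 in their controls, which overlapped. In MV4-11 it was 0.37, 0.91 and 0.23 against -0.02, 0.02 and 0.02, so it was highest in MV4-11 CHD4 shRNA replicate 2. The rises numbered 8 without U937 CHD4 shRNA replicate 3 and 9 without both arrays that stand apart, and the falls 4 without MV4-11 CHD4 shRNA replicate 2 and 4 without both arrays. Whether the vector or the hairpin had a part in this was not tested. Among antigen presentation genes 5 of 23 rose and 1 fell, with HLA-C at 0.29, HLA-B at 0.27 and the immunoproteasome subunit PSMB9 at 0.36. In U937 alone 0 members of this list rose and 3 fell, with a median of -0.05. In MV4-11 alone 4 rose and 0 fell, with a median of 0.14. The rises numbered 3 without MV4-11 scrambled replicate 1, and the falls 3 without MV4-11 CHD4 shRNA replicate 2, 2 without MV4-11 scrambled replicate 1 or 3, 1 without MV4-11 scrambled replicate 2 and 0 without any other array.

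Immediate early and AP-1 pathway genes rose in 6 of 29 cases and fell in 0, and 5 of the 6 passed in neither line alone. The list's median shift was 0.04, 0.12 and 0.29 in the U937 CHD4 shRNA arrays and 0.20, 0.68 and -0.13 in the MV4-11 ones. In the scrambled arrays it lay between -0.03 and 0.06. DUSP6, a phosphatase that switches off ERK, stood at 8.77, 8.76 and 9.06 against 10.24, 10.11 and 11.05 in U937 and at 8.95, 9.32 and 8.21 against 10.86, 11.33 and 9.47 in MV4-11, a rise of 1.66 (SE 0.28). EGR1, a growth-factor-induced zinc finger factor, rose by 1.57 (SE 0.44), but its MV4-11 values of 7.04, 7.29 and 5.81 against 8.69, 9.83 and 6.51 overlapped. The call of EGR1 was lost without U937 scrambled replicate 1, U937 CHD4 shRNA replicate 3, MV4-11 scrambled replicate 3 or MV4-11 CHD4 shRNA replicate 1, and a second probe set, at 0.57, did not pass. The count of rises was 2 without U937 scrambled replicate 1, U937 CHD4 shRNA replicate 3 or MV4-11 CHD4 shRNA replicate 1, 3 without any 1 of the MV4-11 scrambled arrays or both arrays that stand apart, and 11 without MV4-11 CHD4 shRNA replicate 3.

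Of 15 measured NuRD members 2 rose, and CHD4 fell. CDK2AP1, a small NuRD subunit, stood at 9.92, 9.86 and 10.22 against 10.43, 10.49 and 11.08 in U937 and at 9.59, 9.59 and 9.33 against 10.78, 10.88 and 10.22 in MV4-11, and rose by 0.89 (SE 0.15) without overlap. The linker GATAD2A rose by 0.47 (SE 0.13), and lost its call without U937 CHD4 shRNA replicate 3 or MV4-11 scrambled replicate 3. Among 63 other remodelers and histone modifiers 4 rose and 4 fell. The deacetylase HDAC9 rose by 1.02 (SE 0.23), by 1.55 in U937 and by 0.49 in MV4-11. In MV4-11 HDAC9 did not pass (limma adjusted p = 0.281) and its groups overlapped. The DNA methyltransferase DNMT3B rose by 0.62 (SE 0.15). The SWI/SNF subunit SMARCE1 changed by -0.44 (SE 0.08), with a second probe set at -0.09 that did not pass. The 4 rises became 7 after quantile normalization of the deposited values and 2 without U937 scrambled replicate 1 or 2, U937 CHD4 shRNA replicate 3, MV4-11 scrambled replicate 1 or MV4-11 CHD4 shRNA replicate 1.

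Lists of other tissues and lineages were checked in the same way. Their medians lay between -0.11 for B-lymphoid genes and 0.17 for mast cell and basophil genes, of which 8 of 8 were above 0 and 0 changed. Of 14 B-lymphoid genes 5 fell (3 without both arrays that stand apart) and 2 rose, among them BLNK, CD24 (-0.69) and the antigen receptor chain CD79B (0.97). Of 19 T and NK genes 3 rose, led by the adhesion molecule CD2, which stood at 5.41, 5.36 and 5.19 against 6.38, 7.05 and 6.74 in U937 and at 5.28, 5.33 and 5.22 against 7.32, 7.14 and 6.68 in MV4-11. CD2 rose by 1.59 (SE 0.13), while the T-cell receptor chains CD3D and CD3E stood at 0.05 and -0.06. Muscle genes rose in 2 of 21 cases (CSRP3 and TNNT1, 0.68), epithelial genes in 3 of 22 (S100A7, S100A2 and MUC1), fibroblast and endothelial genes in 2 of 21 (COL6A3, 1.03, and SPARC, 0.67) and neuronal genes in 2 of 19, with 2 falls. A second SPARC probe set, at 0.17, did not pass. Testis and germline genes rose in 4 of 24 cases and fell in 3, with TSKS and MNS1 at the ends, and erythroid and megakaryocyte genes rose in 1 of 17 and fell in 1.

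Most of the remaining lists changed in both directions. Of 32 NF-kB, cytokine and inflammatory genes 5 rose and 4 fell, with the cytokine IL1B at 1.47 (SE 0.27) and NFKB1, the p105 precursor subunit of NF-kB, at -0.49 (SE 0.09), and the rises numbered 9 without MV4-11 CHD4 shRNA replicate 3. Of 38 lysosomal genes 6 rose and 3 fell, among them the sulphatase IDS, at 0.92, of which 3 other probe sets, between 0.03 and 0.12, did not pass. Of 15 BCL2 family genes 3 rose and 3 fell, including the killer protein BIK (0.64, SE 0.10) and the Golgi-to-reticulum transport factor BNIP1 (-0.90, SE 0.11). The BCL2 family rises numbered 1 without U937 scrambled replicate 1, U937 CHD4 shRNA replicate 3 or both arrays that stand apart, and the falls 1 without U937 scrambled replicate 1 or 3, U937 CHD4 shRNA replicate 2 or MV4-11 CHD4 shRNA replicate 1. Of 18 heat shock genes 2 rose, the small chaperone HSPB1 (0.35) and the co-chaperone BAG3 (0.35). The 1 fall was the mitochondrial HSPA9 (-0.35), of which another probe set, at -0.12, and the mean of its probe sets did not pass. The heat shock rises numbered 4 without MV4-11 CHD4 shRNA replicate 3 and 1 without U937 scrambled replicate 2, U937 CHD4 shRNA replicate 3, any MV4-11 scrambled array or MV4-11 CHD4 shRNA replicate 1 or 2, and 0 without both arrays that stand apart. The heat shock median was -0.13 in U937 and 0.21 in MV4-11. Of 30 spliceosome genes 1 rose and 1 fell. Of 26 proteasome genes 2 rose (7.69%, beside 8.82% of all genes) and 0 fell, and the rises numbered 3 after quantile normalization and between 0 and 3 when 1 array was left out.

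**Figure D5:**
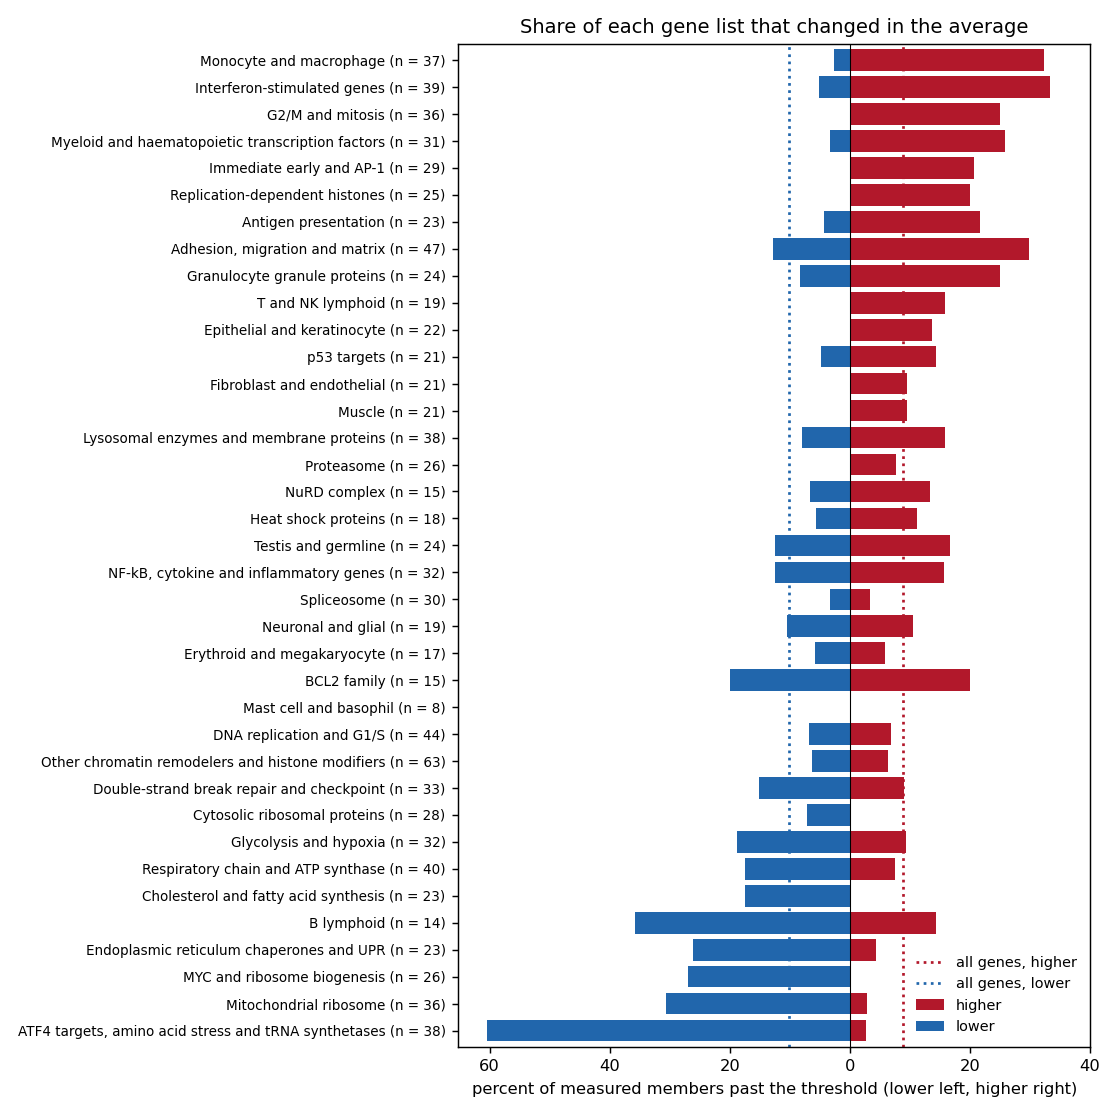
Percent of the measured members of 37 gene lists that changed in the average, higher to the right and lower to the left, with dotted lines at the shares over all genes tested (8.82% higher, 10.1% lower). The ATF4 list has the longest bar to the left (23 of 38), and the interferon (13 of 39) and monocyte (12 of 37) lists the longest to the right.

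Promoter composition of changed genes was described because NuRD holds methyl-CpG-binding subunits. The RefSeq table gave 300 bases around the start, on GRCh38.p14, for 876 of 1055 risen and 1016 of 1209 fallen genes, and a ratio of observed to expected CpG over 0.6 was used to mark a CpG-rich promoter. The share of CpG-rich promoters was 86.1% among fallen genes and 71.2% among risen genes. By size, it was 48.4% among genes that rose at least 1.5-fold and 78.9% among smaller rises, and 80.5% and 87.7% among the falls. Among the 9563 tested genes with a promoter in the table it was 71.9%, close to the share of the risen genes. Only 79.9% of the tested genes were matched, which limits this background. Over all 27305 promoters of the table the share was 48.9%, but that table also holds genes not on the array. Large rises thus had fewer CpG-rich promoters than the other groups of changed genes, and no test was made of this.

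The difference is visible in the promoters of CD52, the largest rise, and CXCR4, a fall, a pair picked after the values were seen. Both are shown as the 250 bases before the RefSeq start on GRCh38.p14, 5′ to 3′ on the gene's strand, with every CG in capitals. CD52 is at chr1:26317708-26317957, plus strand, with 3 CG in this window, and CXCR4 at chr2:136118150-136118399, minus strand, with 24. CHEK2, another fall, had 13 in the same window.
CD52: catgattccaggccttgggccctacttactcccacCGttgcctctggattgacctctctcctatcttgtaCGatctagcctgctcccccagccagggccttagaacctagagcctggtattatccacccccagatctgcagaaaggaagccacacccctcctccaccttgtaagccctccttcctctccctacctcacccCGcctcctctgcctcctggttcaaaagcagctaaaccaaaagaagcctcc
CXCR4: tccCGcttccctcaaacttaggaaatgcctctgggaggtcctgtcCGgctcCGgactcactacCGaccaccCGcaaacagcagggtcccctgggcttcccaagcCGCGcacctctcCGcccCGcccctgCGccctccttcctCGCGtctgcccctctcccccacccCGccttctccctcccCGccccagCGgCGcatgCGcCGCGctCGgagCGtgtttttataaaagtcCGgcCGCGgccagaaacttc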

How the data were processed

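Total RNA of 12 samples was hybridised to Affymetrix arrays, 3 for each of 4 groups named by the titles. The series description calls the triplicates biological, but no label says whether they were separate transductions, and the p-values measure the spread between these samples. The values deposited by the authors are on a log2 scale and were computed with RMA, per the submitters' processing notes. Neither the RMA version nor joint processing of the arrays is stated in the sources used here. RMA normalizes arrays by quantiles, so a change common to most genes would not show, and background compresses the folds of dim genes. The scale was read from the values, 2.54 to 15.11. The number of arrays limits the precision.

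Of 22277 probe sets, 62 controls were left out, 19064 had 1 gene symbol in the platform annotation (19052 matched to RefSeq by Entrez identifier), 1043 had several and 2108 were not listed there. The probe set with the highest mean stood for a gene, which gave 11963 genes, 4310 of them with several probe sets. For named genes and list members described as changed, other probe sets that did not pass are given. A list member counted as unchanged can have other probe sets that passed when all probe sets were tested. Besides FAS, examples are CD44 (0.16, with others at -0.55, -0.48, -0.45 and -0.43) and CHD5 (0.11, with another at 0.98). No filter on dim genes was applied.

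The average change came from limma 3.58.1 in R 4.3.3 (lmFit, eBayes) with shRNA and cell line as additive terms over all 12 arrays. Single-line changes and their difference came from a fit of 4 group means. Benjamini-Hochberg adjustment ran over the 11963 genes, and every adjusted p is from these limma fits. On simulated data for the average, 5, 44, 50 and 50 of 50 genes changed by 0.25, 0.5, 1 and 2 were recovered, with 8 false calls. Far fewer genes were changed in the simulation than were called in the data, and its noise was independent between arrays. Its recovery and false calls therefore need not hold for the data.

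A rule gave 120 genes to name. They hold CHD4 and the 8 largest rises and falls whose arrays did not overlap in either line. They also hold the 6 rises and falls with the lowest p that passed in neither line alone and did not overlap. The rest are the 3 members with the lowest p of each list with 2 or more changed members and of the NuRD, p53 and double-strand break lists. Some genes of the rule, such as KLF1, ITGA2B and CHGB, are not described above. Names outside the rule (markers, genes at the threshold and the further amino acid stress genes) were chosen after their values were seen. The comparison, members, 37 lists and tests were chosen with earlier results of these data known. Promoters and gene names came from RefSeq tables. Alternatives covered the model, replicate blocks, dim genes, scaling, variance moderation, array weights, probe sets, thresholds and leaving out arrays. A replicate block in MV4-11 alone, leaving out both arrays at the ends of the first 2 principal components, and the motif TGATGNAA were added after seeing the data.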

Additional observations from a re-analysis of the deposited data

How the results depend on the processing

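The count of 2264 changed genes stayed within 1.5 times under every alternative run except adjusted p under 0.01 (1206; 549 higher, 657 lower), and lay between 1774 and 2348 when 1 array was left out (817 to 1091 higher, 957 to 1257 lower). At that stricter threshold 136 in place of 248 list members changed. The 973 genes in neither line alone became 156 with array weights, which did not converge, and 9 when an unadjusted p of 0.05 or more was asked in both lines, and lay between 598 (without MV4-11 CHD4 shRNA replicate 3) and 1111 when 1 array was left out. Genes whose change differed between lines numbered 119 with array weights, 3 without both arrays at the ends of the first 2 principal components, and 0 to 4 when 1 array was left out. Non-overlapping genes, 1495 with all arrays, numbered 1569 to 1824, and changed list members 193 to 269. Same-numbered arrays of a line correlated at 0.00, 0.35 and 0.34 in U937 and 0.46, 0.48 and 0.49 in MV4-11 in their deviations from group means. The labels state no pairing, and the main fit had no replicate block, so it left this correlation out. With a replicate block of 6 pairs 2978 genes changed, with 2234 of the 2264 among them. With a block shared by both lines 2223 changed, and with a block in MV4-11 alone 2794. The block of 6 pairs left 673 genes in neither line alone, and 329 of the 973 were among them (33.8%). Without both arrays at the ends of the first 2 principal components 390 of the 973 stayed in that class (40.1%). With the block of 6 pairs the lists moved most in G2/M (18 rises in place of 9), immediate early genes (11 in place of 6), histones (8 in place of 5), cholesterol synthesis (8 falls in place of 4), other chromatin genes (9 rises and 7 falls in place of 4 and 4) and myeloid transcription factors (8 rises and 6 falls in place of 8 and 1). In the 3 numbers of MV4-11 and numbers 2 and 3 of U937 each array correlated best with its own number. The higher share of changed genes was 46.6%, 49.4% after quantile normalization and 43.6% after median centring, and the all-gene median moved by at most 0.01. Over the 120 named genes and their alternatives 2889 values kept their call, 106 no longer passed and 0 reversed. No alternative was run on the promoter shares. Dim genes limit the reading, since a probe set at background shows no fall.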
